A study of Homo sapiens with 2 samples.

Results

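Sense intronic genes are non-coding genes that GENCODE places inside an intron of another gene on the same strand. Members were taken as the genes of that class in GENCODE 29 (GRCh38) that lie off chromosome Y and have a row in the deposited count table, matched by Ensembl identifier without version. The rule gave 887 of the 58347 genes in the table, and another 6 genes of the class off chromosome Y were not analysed here. Counts came from U2AF2 eCLIP, in which RNA is crosslinked to its bound protein with ultraviolet light and recovered with an antibody, in HEL, a human erythroleukemia cell line that received no treatment. The samples formed 1 group of 2 replicates, immunoprecipitated with an antibody to U2AF2 itself. The source field of the labels names HEL, while their cell line field reads U2AF2. Nothing in the labels says whether the replicates were separate cultures. Without input libraries here, no value is an enrichment over background.

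U2AF2 is the large subunit of U2AF, the factor that binds the polypyrimidine tract between the branch point and the AG at the end of an intron and so marks the 3' splice site for the spliceosome. It therefore meets pre-mRNA mainly in introns. A transcript made within an intron can be an RNA of its own, a fragment of the host's pre-mRNA or, where another gene runs across the same bases on the other strand, a place where reads of 2 genes come to lie. How the counting treated strand is not given in the sources used here. For any gene with an opposite-strand partner, its reads may have come from either of the 2 genes.

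Gene counts totalled 995428 in replicate 1 and 1350116 in replicate 2. Levels are given as CPM, the count per 1000000 of the scaled library total. For a gene at 0, the upper limit set by 3 counts was 2.98 CPM for the first replicate and 2.25 CPM for the second. These limits and all intervals cover counting error only. Most of the HEL markers described here were thinly counted. The erythroid genes GATA1, KLF1 and TFRC held 6 and 14, 0 and 4, and 0 and 2 counts. Of the megakaryocyte genes, ITGA2B and ITGB3 each held 0 and 2, GP9 0 and 1, and PF4 0 in both libraries, while FLI1 held 55 and 63 and GP1BA 312 and 413, far above the others. Of the genes of other cells described here, CD3E held 0 and 1 counts, and ALB and STMN2 held 0.

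The sequences shown here are 3' splice sites that fall inside members. Of the 887 genes, 14 contain an annotated 3' splice site of a gene on the opposite strand within their own exons, and 5 of these 14 rank among the 20 members with the highest mean CPM. Their 7 sites follow, with the leading pair of genes first. Each is read 5' to 3' on the strand of the gene that is spliced, as 40 intron bases and then 10 exon bases, from GENCODE 29 transcripts (GRCh38). Capitals mark the longest run of C and T in the intron part (the first of equal runs) and the last 2 bases of the intron.
CEBPZ in AC007390.2, chr2:37211073-37211122, minus strand: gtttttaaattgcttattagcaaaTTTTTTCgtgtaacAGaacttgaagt
CEBPZ in AC007390.2, chr2:37212030-37212079, minus strand: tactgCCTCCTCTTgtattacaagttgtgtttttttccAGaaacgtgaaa
CEBPZ in AC007390.2, chr2:37212383-37212432, minus strand: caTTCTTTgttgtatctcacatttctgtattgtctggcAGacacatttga
DNM1L in AC084824.4, chr12:32737065-32737114, plus strand: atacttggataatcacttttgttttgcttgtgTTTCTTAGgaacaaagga
NUTM2B-AS1 in AL132656.3, chr10:79663225-79663274, minus strand: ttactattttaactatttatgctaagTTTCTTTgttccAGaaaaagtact
AC011477.1 in AC011477.2, chr19:19788910-19788959, plus strand: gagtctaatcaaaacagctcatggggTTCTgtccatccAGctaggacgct
GCFC2 in AC005034.5, chr2:75670275-75670324, minus strand: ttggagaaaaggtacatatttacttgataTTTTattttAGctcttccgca

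All 7 introns end in AG, and C and T made up a median of 65.0% of their 40 intron bases. The 6 readable opposite-strand sites in members with fewer counts had a median of 58.8%, and 7059 annotated 3' splice sites that lie inside an exon of the other strand had a median of 62.5% (quartiles 55.0 and 67.5). The median of the 7 sites lay between these quartiles. The longest run of all, 16 bases, belonged to a site with no counts around it. It is shown for contrast, beside the 1 readable site that lies on a high-count member's own strand.
ZNF542P in AC006116.10, chr19:56376827-56376876, plus strand: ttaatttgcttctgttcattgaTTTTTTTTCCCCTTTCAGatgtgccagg
STRBP in MIR600HG, chr9:123109744-123109793, minus strand: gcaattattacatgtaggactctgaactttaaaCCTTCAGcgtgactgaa

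Most sense intronic genes held no reads. Both libraries were at 0 for 613 of 887 members (69.1%, against 47.3% of all genes), 240 held some reads below the count minimum, and 34 held at least 10 counts in each library. That is 3.83% of the members, while 15.4% of all genes in the table reached this minimum, which is not adjusted for length. Members are short, with a median of 558 bases of merged exons (94 to 13454). Their median count over both libraries was 0 and that of all genes 1. In total they took 1920 counts in replicate 1 and 2711 in replicate 2, which is 0.193% (exact 95% binomial interval 0.184 to 0.202) and 0.201% (0.193 to 0.208) of the library. By class, the share reaching 10 counts in each library was 37.7% for antisense genes, 24.9% for protein-coding genes and 17.3% for processed transcripts. It was 13.7% for genes of the provisional class TEC, 8.24% for processed pseudogenes, 7.78% for sense overlapping genes and 6.13% for long intergenic RNAs.

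The position of the members largely matched the name of the class. A same-strand gene spanned 870 of them, a protein-coding one for 835, and 858 fitted within a single annotated intron of it. Exceptions were 39 members with bases in an exon of a same-strand gene and 12 with no same-strand gene over them at all, while a few, such as AL365273.1 and AP000688.1, overlap one only in part. None of the 12 reached 10 counts in each library, but only 3.83% of all members did, so 12 genes are too few to tell. Of the 39, 5 (12.8%) reached it, against 15.4% of all genes. On the other strand, 130 members had a further gene over their exons and 757 had none.

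Members with an opposite-strand gene held most of the reads. They took 77.5% of all member counts, and 24 of 130 (18.5%) reached 10 counts in each library, a share close to that of all genes. Of the 757 without one, 10 (1.32%) did. The mean was 33.3 counts per kb of merged exons over both libraries with an opposite-strand gene and 1.52 without. The ratio of the means was 21.6 in replicate 1 and 21.98 in replicate 2, or 21.8 ± 0.285 (SD, n = 2). The SD covers the libraries only. It does not cover the spread among genes, which are not replicates and were not tested against each other. A few genes carry these means, since the median was 1.23 counts per kb with a partner and 0 without, and the ratio was 12.9 when the 5 members with the most counts were left out.

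What the opposite-strand gene placed over the member also went with the mean counts and with the share past the minimum. The 14 members with an opposite-strand 3' splice site averaged 92.8 counts per kb, and 5 of them (35.7%) reached the minimum. Another 36 members lay over an opposite-strand exon without such a site. They averaged 44.1 counts per kb and 11 (30.6%) reached the minimum. For 80 members only an opposite-strand intron lay over the exons, with a mean of 18.0 counts per kb and 8 (10.0%) past the minimum. The order of the first 2 groups rests on single genes: without the 2 highest members of each group the means were 23.4, 27.9 and 11.0 counts per kb, and 1.30 for members with no partner. The exon groups were above the intron group, and that above the unpartnered members, in both forms. Median exon length was 1730 bases in the splice site group and 556 in the unpartnered group, and no adjustment for length was made beyond the division per kb.

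**Figure D1:**
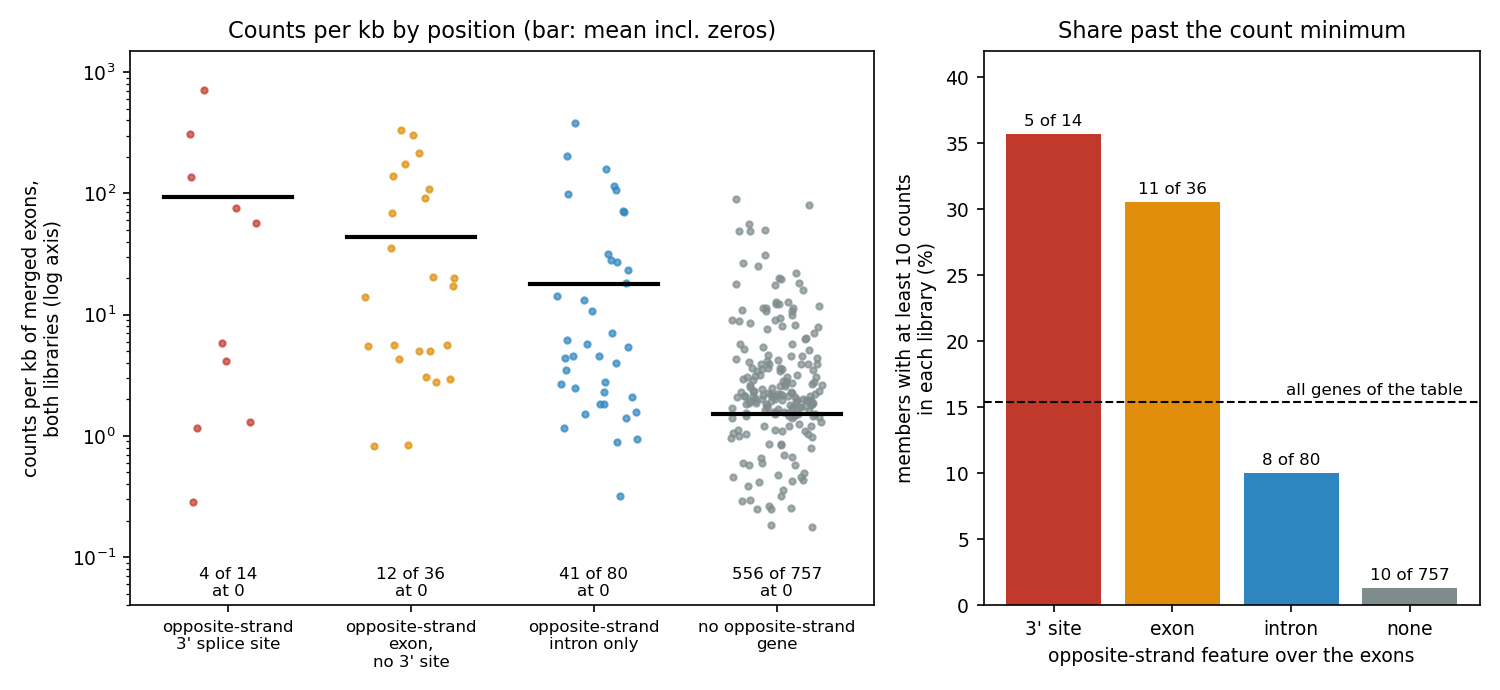
Left, counts per kb of merged exons over both libraries (log axis) for each sense intronic gene by what lies over its exons on the other strand, with black bars for group means that include the genes at 0, whose number is printed at the bottom. Right, the percent of each group with at least 10 counts in each library; the 3' splice site and exon groups stand above the dashed line for all genes (15.4%), and the intron group (10.0%) and genes with no partner (1.32%) below it.

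Members with either kind of partner held more than those with none. Where the partner was protein-coding, 13 of 47 members reached the minimum and the mean was 56.1 counts per kb. With non-coding partners only, it was 11 of 83 and 20.3 counts per kb. Single-exon members averaged 43.1 counts per kb with a partner and 1.20 without, and members with several merged exons 24.8 and 1.76. A 3' splice site of a same-strand gene lay in 14 members, which averaged 4.11 counts per kb (median 0.178). The minimum was reached by 3.83% of all members and 15.4% of all genes. In this group 3 (21.4%) reached it, too few to set the group apart from all genes. AL356966.1 and ST7-OT4 among these 3 also have an opposite-strand gene. The 14 members with an opposite-strand site had a median of 2.7 counts per kb, and their mean of 92.8, or 23.4 without its 2 highest members, was above that of the same-strand group in both forms. The shares reaching the minimum were 5 of 14 and 3 of 14.

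Base composition was taken over the longest transcript of each member. C and T made up a median of 49.1% of the bases in the 24 partnered members past the minimum and 51.6% in the 10 unpartnered ones, with an even balance of C and T with A and G over all members. The longest run of C and T had medians of 11.0 and 12.5 bases in these groups on their own strand and 11.5 and 11.0 read on the opposite strand, against 11.0 on either strand in all members. The unpartnered group thus had a slightly higher median of C and T on its own strand, over only 10 genes. Its transcripts were also longer, with a median of 1000 bases against 599 in the partnered group and 557 in all members. Run lengths were not adjusted for this.

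AC007390.2 (ENSG00000272054.1, chromosome 2, 37208875 to 37212677, plus strand) was the member with the most counts, 458 in replicate 1 and 721 in replicate 2. Both libraries were high, at 454 and 541 CPM, and this single gene held 25.5% of all member counts. It is 1 exon of 3803 bases in an 11710-base intron of CEBPZOS, a gene for a small mitochondrial protein. On the other strand it covers 3 exons of CEBPZ, a CCAAT-binding nuclear factor gene, each with its 3' splice site. CEBPZOS itself held 379 and 635 counts and CEBPZ 305 and 459. Per kb of merged exons over both libraries the member held 310 counts, CEBPZOS 216 and CEBPZ 211, so the 3 genes of this locus were at similar levels.

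AC084824.4 (ENSG00000275854.1, chromosome 12, 32736930 to 32737660, minus strand) held 216 and 302 counts, or 220 ± 8.69 CPM (SD, n = 2). Per kb it stood first among members past the minimum, with 709 counts. Its host is YARS2, the mitochondrial tyrosyl-tRNA synthetase gene, and its opposite-strand gene is DNM1L, which encodes a dynamin-related GTPase of mitochondrial fission. The same 19556-base intron of YARS2 holds a second member, AC084824.3, which has 11 and 13 counts and 28.0 per kb. Both lie opposite DNM1L, but AC084824.3 falls wholly in a DNM1L intron, 1990 bases from the nearest opposite-strand 3' splice site, whereas AC084824.4 covers a DNM1L exon with its site. YARS2 held 67.4 and DNM1L 18.0 counts per kb. AC084824.3 was singled out after its values were seen.

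**Figure D2:**
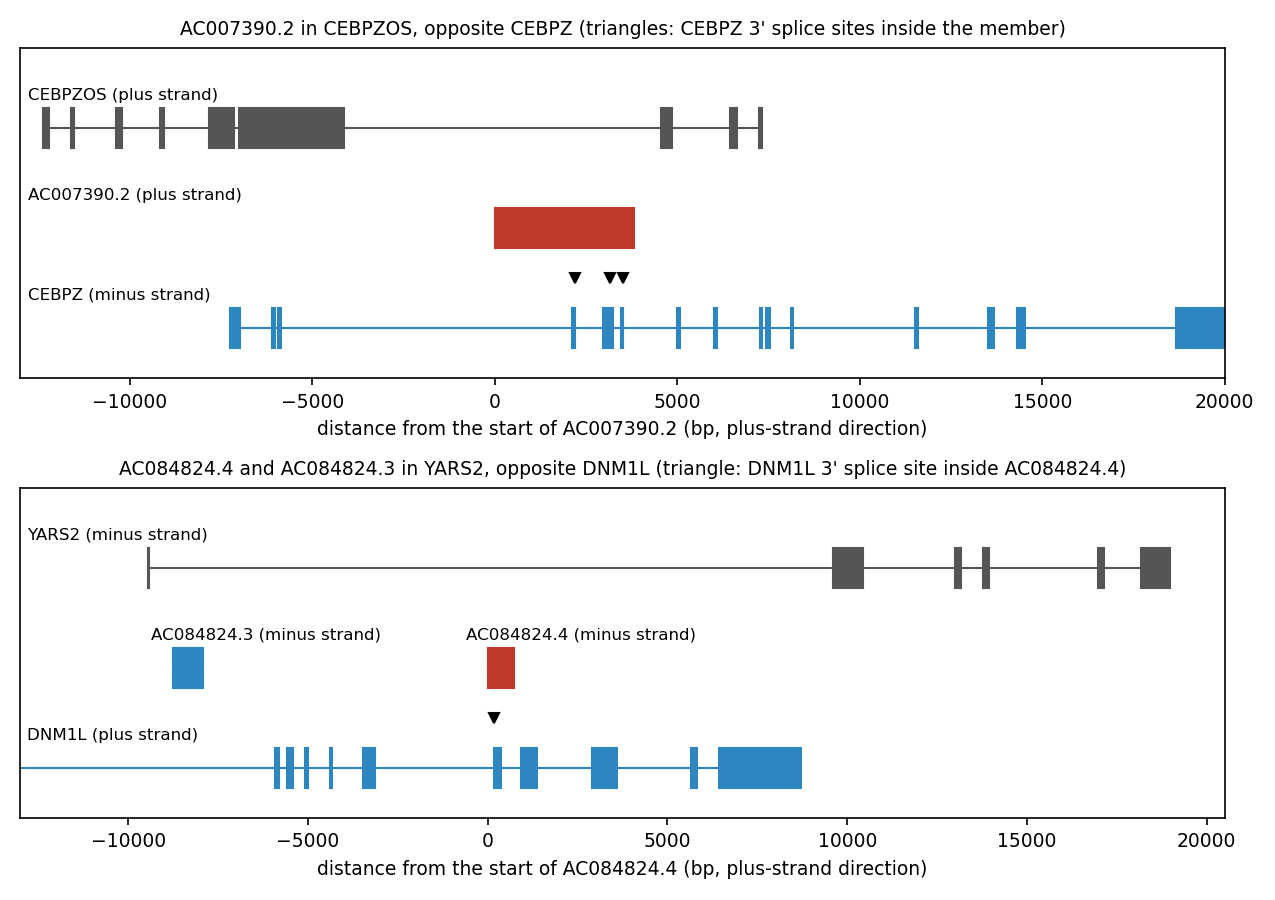
Maps of the 2 leading genes, with boxes for merged exons, lines for gene spans, triangles for opposite-strand 3' splice sites inside the member, and the x axis in bases from the member's start; CEBPZ and DNM1L run on beyond the frame. AC007390.2 spans 3 CEBPZ exons, AC084824.4 spans 1 DNM1L exon and AC084824.3 spans none.

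The 3 other high-count members with an opposite-strand 3' splice site had fewer reads, at similar CPM in both libraries. AL132656.3, opposite the antisense RNA gene NUTM2B-AS1, held 35 and 55 counts. AC011477.2, in an intron of the zinc finger gene ZNF506 and opposite the pseudogene AC011477.1, held 28 and 42. AC005034.5 lies in MRPL19, a mitochondrial ribosomal protein gene, and opposite GCFC2, a gene for a nuclear protein linked to splicing; it held 27 and 36. Per kb these were 56.4, 76.0 and 135 counts. Their partners differed in level, at 1.69 counts per kb for NUTM2B-AS1, 0.425 for AC011477.1 and 35.1 for GCFC2. The other 9 members with such a site did not reach the minimum, and AC124017.1, opposite the ubiquitin ligase gene LNX1, came nearest with 11 and 7. It and AC006116.10 above were named after their values were seen.

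Opposite-strand exons without a 3' splice site lay over AC010326.3, with 111 and 116 counts, and AC011497.1, with 73 and 98. AC010326.3 is in ZNF814, a zinc finger gene, opposite the processed pseudogene AC010326.4, which held 59 and 68 counts. AC011497.1 is in LIPE, the hormone-sensitive lipase gene, opposite LIPE-AS1, which held 68 and 90. Per kb the members held 334 and 305 counts, the pseudogene 136 and LIPE-AS1 37.5. In both loci the member was denser than its partner and than its host, at 132 counts per kb for ZNF814 and 167 for LIPE.

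AP003396.5 held 52 and 59 counts and differs from most members in that its host is non-coding. USP2-AS1, the host, had 1 and 0 counts. THY1 on the other strand, the gene of a cell surface glycoprotein, held 21 and 30. AC245884.9 held 45 and 59 counts in TTYH1, a membrane protein gene, opposite the antisense gene AC245884.1, which held 2 and 0. Per kb these 2 members were at 176 and 215 counts, well above either partner (8.61 for THY1 and 3.78 for AC245884.1). The host TTYH1 held 208 and 262 counts, or 66.5 per kb.

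DLEU2L held 26 and 46 counts in EFCAB7, and lies opposite an intron of ITGB3BP, a centromere protein gene, which held 133 and 162. It also covers 6 gene models of the miscellaneous RNA class on the other strand, of which RF02106 held 18 and 30 counts and the others at most 1 in a library. Genes on both strands of this stretch held counts. AL356966.1, in GGACT, held 18 and 44 counts and AP000688.1 held 22 and 24. AP000688.1 overlaps the methyltransferase gene SETD4 on its own strand but extends beyond it, so SETD4 is no host. AP000688.1 lies opposite CBR1, a carbonyl reductase gene that itself held 0 and 4.

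Only an opposite-strand intron lay over AC020915.2 (52 and 60 counts, in ZNF544), AC010463.3 (29 and 50, in ABHD8), AL021707.8 (23 and 46, in SUN2) and AL365273.1 (27 and 36). AL365273.1 overlaps ENTPD1 on its own strand and runs past the end of that gene. SUN2 encodes a nuclear envelope protein and ENTPD1 the ectonucleotidase CD39. AL021707.8 is only 183 bases long and was second per kb, with 377 counts. Its host SUN2 held 178 per kb and its partners 31.0 (the GTPase gene GTPBP1), 49.9 (AL021707.5) and 114 (AL021707.3). The antisense gene AC020915.3, the partner of AC020915.2, held 664 and 815 counts, many more than the member. MRPL34, a mitochondrial ribosomal protein gene and the partner of AC010463.3, held 5 and 11. The host ABHD8 held 235 and 313, and per kb it was denser than AC010463.3 (248 against 158 counts). The host ZNF544 was less dense than AC020915.2 (108 against 204 counts per kb).

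**Figure D3:**
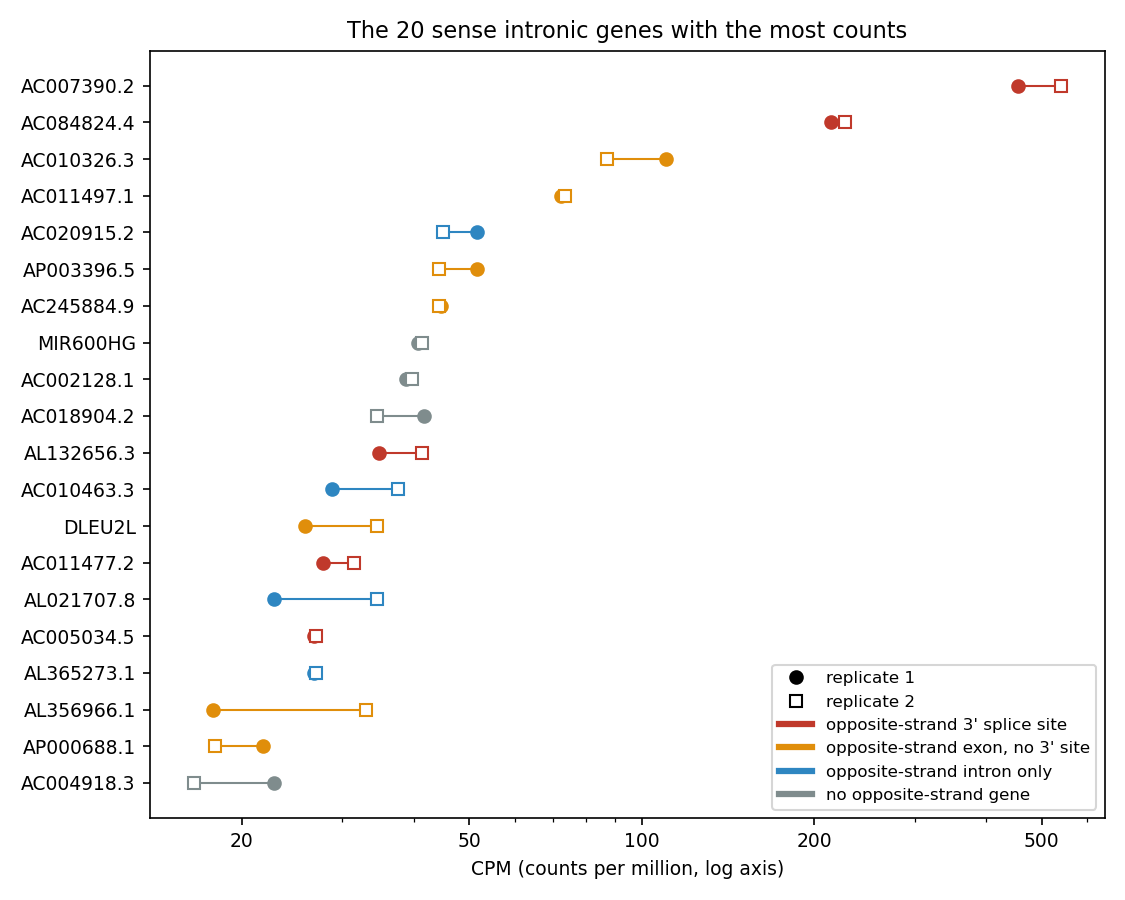
CPM (log axis) of the 20 sense intronic genes with the highest mean, with a filled circle for replicate 1 and an open square for replicate 2, coloured by the opposite-strand feature over their exons. AC007390.2 and AC084824.4 stand apart from the rest, and 16 of the 20 have an opposite-strand gene.

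Among these 20 members, 8 had a protein-coding partner, 8 a non-coding one only and 4 none. The highest member with no opposite-strand gene was MIR600HG, the host transcript of the microRNA miR-600, with 41 and 55 counts. It is 5984 bases long, so per kb it held only 16.0. It overlaps exons of the same-strand gene STRBP, which encodes a double-stranded RNA-binding protein and held 7 and 10 counts, and the microRNA model MIR600 held 0 in both libraries.

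AC002128.1 followed with 39 and 53 counts and led the unpartnered members past the minimum per kb, with 90.6. It lies in LSR, a lipoprotein receptor gene with 137 and 200 counts. AC018904.2, in the hepatic lipase gene LIPC, held 42 and 46 counts, against 51 and 58 for LIPC. AC004918.3 held 23 and 22 counts in KIAA1147. These 3 genes had similar levels in both libraries, and their nearest annotated gene on the other strand lay 7678, 9207 and 22576 bases away (AC004918.3, AC002128.1 and AC018904.2).

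The remaining 4 of the 8 leading unpartnered members were close to the minimum. AC020978.4, in the epithelial splicing regulator gene ESRP2, held 12 and 18 counts. AL604028.1, in IPP, held 12 and 17, and AGBL5-IT1, in the carboxypeptidase gene AGBL5, held 15 and 12. AL445645.1, in the adenylate kinase gene AK8, held 13 and 14. AK8 had only 1 and 6 counts, whereas AGBL5 had 718 and 1085. The members were picked by their rank in CPM, which fixes their like counts, so their spread cannot be set against that of the hosts.

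Distance to the nearest opposite-strand gene was then set beside the counts of the unpartnered members. The 10 past the minimum lay a median of 8442.5 bases from one (241 to 74010) and the other 747 a median of 25378 bases. Within 5000 bases the mean was 2.23 counts per kb (151 genes), at 5000 to 20000 bases 2.39 (180 genes) and beyond 20000 bases 0.906 (426 genes). The level was thus lower in the farthest group only, and all 3 means stood far below the 33.3 of partnered members. On the own strand, unpartnered members that contain a 3' splice site averaged 2.66 counts per kb (10 genes) and those within 100 bases of one 4.52 (15 genes), where a single gene at 48.6 gave most of the mean. At 100 to 1000 bases the mean was 2.78 (140 genes), at 1000 to 5000 bases 1.52 (222 genes) and farther away 0.900 (370 genes). The members that contain a site did not hold the highest mean, which rests on that single gene. Their 2.66 was also below the 2.78 at 100 to 1000 bases. MIR600HG, their only member past the minimum, held 16.0 counts per kb and gave most of that 2.66. By median the members that contain a site were highest, at 0.178 counts per kb against 0 in each other group. So was their share past the minimum, at 1 of 10, against 1 of 15, 4 of 140, 2 of 222 and 2 of 370 with growing distance. Host introns of high and low pre-mRNA levels were not told apart here.

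Some hosts hold members of both kinds, which compares them within 1 gene. There were 14 such hosts, of which 12 had no member past the minimum. In KLC1, the kinesin light chain gene, AL049840.3 lies over an exon of an antisense gene and held 19 and 23 counts, while AL049840.4 and AL049840.5, with no partner, held 8 and 10 and 0 and 0. LIPC went the other way: AC018904.2, with no partner, held 42 and 46 counts, and AC084781.1 and AC084781.2, with partners, held 1 and 2 and 1 and 0. The members of these pairs other than AC018904.2 were named after their values were seen.

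The replicates gave like values for the 34 members past the minimum, a filter that itself leaves out genes counted in 1 library only. Across the 34 genes past the minimum, log2 CPM had a Pearson r of 0.949 and a Spearman rho of 0.913, as a description over genes that share the same libraries. The exact binomial test between the libraries, run on all 8983 genes past the minimum, called 45 (0.501%) at an adjusted p below 0.05 and 0 of the 34 members. Their lowest Benjamini-Hochberg adjusted exact p was 0.233, for AC007390.2, whose CPM was higher in replicate 2 by 0.252 on the log2 scale. Without adjustment 4 members had an exact p below 0.05, and with DESeq2 size factors again 0 passed and 4 did before adjustment. The test compares 2 libraries of 1 group.

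The largest differences within the 34 were those of AC018926.1, with 12 and 31 counts, and ST7-OT4, with 22 and 15. On the log2 scale replicate 2 differed from replicate 1 by 0.966 and -0.956 in these genes, and none of the 34 differed by more than 2-fold. Below the minimum, AC023421.1, in the urea transporter gene SLC14A2, held 1 count in replicate 1 and 20 in replicate 2. When every gene with a read was tested, its exact p was 0.000195 and its adjusted exact p over 30752 genes 0.0682. AC018926.1, ST7-OT4 and AC023421.1 were named after their values were seen.

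**Figure D4:**
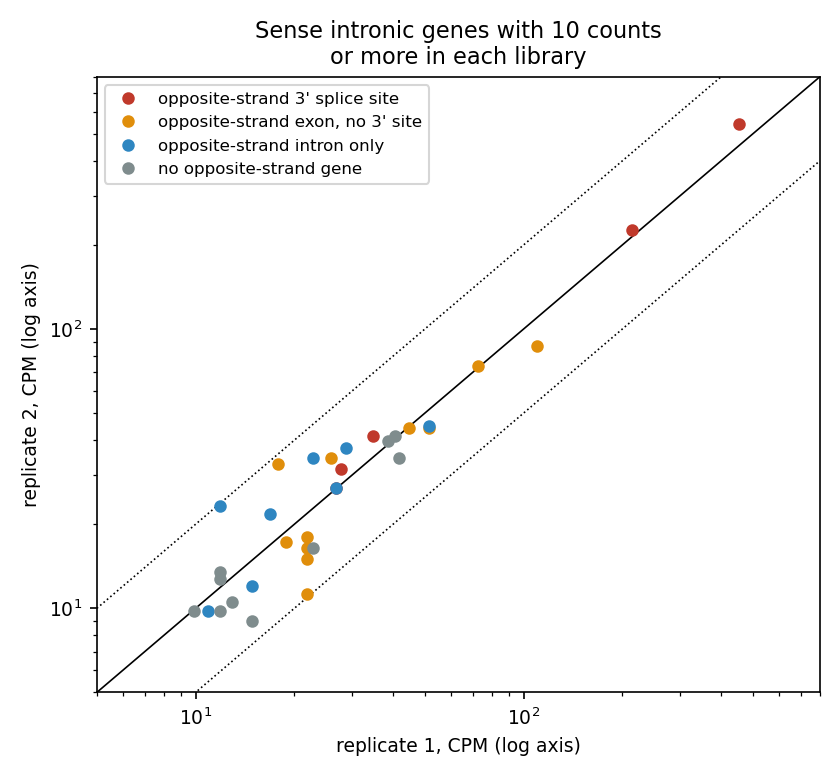
CPM in replicate 1 against replicate 2 (both log axes) for the 34 sense intronic genes past the count minimum, coloured by the opposite-strand feature over their exons; the solid line marks equal values and the dotted lines a 2-fold difference. All 34 points lie within the dotted lines.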

How the data were processed

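Both libraries were analysed from the deposited counts, which are raw whole numbers for each gene. STAR 2.7.0f, cutadapt and the build GRCh38.p10 are named in the submitters' processing notes. How reads were counted, on which strand, with which annotation and with or without duplicates is not given in the sources used here. Tallies without a gene stayed out of library sizes: reads on no feature were 97.3% and 97.4% of the uniquely placed reads of replicates 1 and 2.

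Gene models came from GENCODE 29, which may differ from the authors' annotation. An opposite-strand gene counted where its span covered a base of a member's merged exons. A 3' splice site was the first exon base after an annotated intron of at least 20 bases. Members and lists were chosen with earlier results of these data known. TMM factors (edgeR 4.0.16, R 4.3.3) were 1.01 and 0.987, from genes that had 10 counts or more in both libraries. CPM uses the scaled totals. Libraries were compared per gene by a two-sided exact binomial test with Benjamini-Hochberg adjustment at 0.05, tested on simulated data. With 1 group, edgeR's quasi-likelihood test was not used. DESeq2 1.42.0 gave alternative size factors. Python 3.11.15, scipy 1.17.1, numpy 2.4.6, pandas 2.3.3 and matplotlib 3.10.9 were used.

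Named genes were the 20 members with the highest mean CPM, the 8 highest without an opposite-strand gene, the 5 highest per kb past the minimum, members past the test, their hosts and partners, and the 5 hosts with the most members; others are marked. Alternatives varied the count minimum, scaling, length measure, partner definition and single genes or libraries. Some of the marker genes examined are not reported here.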

Additional observations from a re-analysis of the deposited data

How the results depend on the processing

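No paired analysis was possible because the series has 1 group. The number of members past the count minimum was 34, 118 with at least 1 count in each library, and 36 to 43 when 1 library was left out. The members' share of all gene counts was 0.193% to 0.201% in single libraries. The ratio of mean counts per kb with and without an opposite-strand gene was 21.8 and ranged from 21.6 to 21.98 in single libraries. It was 27.0 per kb of span, 16.6 with protein-coding partners only, 20.1 with partners anywhere over the span, 19.3 with 1 member per set of partners and 12.9 without the 5 members with the most counts, and it stayed above 1 in each of these. With protein-coding partners only, 13 members past the minimum had a partner and 21 did not, since the members with non-coding partners then fall in the second group. With 1 library left out, 25 to 27 partnered and 11 to 16 unpartnered members passed, the 16 without replicate 1, the library with fewer counts; the cause was not tested. The mean of members with an opposite-strand 3' splice site was 92.8 counts per kb, 76.6 with sites up to 100 bases away, 38.1 to 54.7 in the counts of single libraries, and 23.4 without its 2 highest members, a setting chosen after seeing the data. No member differed between the libraries under any of the 3 alternative settings. CPM of all 24 named members moved by less than the SD between replicates under both other scalings. For members at fewer than 10 counts, depth limits any statement.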

Other observations

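The hosts with 4 or more members held almost no reads in them. CCDC92 and WWOX each span 6 sense intronic genes and ASIC2 and XKR6 each span 4. These 20 members have no opposite-strand gene, held 10 counts in all and none reached 10 counts in each library. Of all unpartnered members only 1.32% did, so 20 genes are too few to set these hosts apart. WWOX is a very long gene at a common fragile site, and ASIC2 encodes an acid-sensing ion channel. AATF, the first by name of 17 hosts with 3 members, held 1 count over its members. Other hosts with 3 held more, up to 92 counts for LIPC and 60 for KLC1.

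Members whose symbol marks them as intronic transcripts (-IT) numbered 121, and AGBL5-IT1 and SMIM2-IT1 were the 2 past the minimum. SMIM2-IT1 held 22 counts in each library. Chromosome 19 held 54 members, of which 7 passed the minimum, and 6 of these 7 have an opposite-strand gene, as do 14 of the 54. Chromosome 15 held 77 members, of which 4 passed, 1 with a partner. For scale, 3.83% of all members and 15.4% of all genes passed the minimum, and 130 of the 887 members have an opposite-strand gene. These groups were chosen after their values were seen and were not tested.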
